A study of Mus musculus with 15 samples.

Results

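The genes described here encode proteoglycans, tenascins and fibronectin, grouped as matrix genes of the glial scar, together with a sulphating enzyme of the proteoglycan chains. They were taken by symbol from the count table: neurocan (Ncan), brevican (Bcan), versican (Vcan), aggrecan (Acan), neuroglycan C (Cspg5), the receptor phosphatase that also gives phosphacan (Ptprz1), tenascin-C (Tnc), tenascin-R (Tnr), fibronectin (Fn1) and the chondroitin sulfotransferase Chst11. All 10 were found among the 25748 symbols counted, and 9 passed the filter on low counts that left 15362 genes for testing. Aggrecan did not pass.

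Primary mouse brain astrocytes were profiled by sequencing of polyadenylated RNA in 15 libraries, 5 in each of 3 groups. The Rg1 plus LPS cells had 80 µM of the ginsenoside Rg1, a saponin of ginseng, for 12 h and then lipopolysaccharide (LPS, a bacterial cell wall component sensed by Toll-like receptors) at 1 µg/mL for 6 to 8 h. The LPS cells, named SCI by the submitters as a culture model of spinal cord injury, had the same LPS dose and time without Rg1, and the control cells had neither. Cells given Rg1 without LPS were not analysed here, so the Rg1 plus LPS group differs from the control group in both agents. The treatment field of the Rg1 plus LPS libraries counts up from Rg1 to Rg5, whereas the titles name 5 replicates of Rg1, and the titles were followed. Whether a group's libraries stem from different cultures or mice is not stated in the labels, so each p-value measures the spread between these samples, which may be technical.

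Chondroitin sulphate proteoglycans are core proteins that carry long sulphated sugar chains. The lecticans (neurocan, brevican, versican and aggrecan) bind hyaluronan through their N-terminal end and tenascins through their C-terminal end, and so tie the brain's extracellular matrix into a net. After injury to the central nervous system, reactive astrocytes deposit them at the lesion border, where the chains restrain regrowing axons through receptor phosphatases. Tenascin-C and fibronectin are glycoproteins of wound matrix that bind integrins. The transcripts reported here are mRNA levels in culture, not protein or matrix.

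The libraries held 34.2 to 41.8 M counts. All 10 listed astrocyte markers averaged at least 1 CPM, with Gfap the highest at 2631 to 3988 CPM in Rg1 plus LPS, 2211 to 4411 CPM in LPS and 3570 to 4927 CPM in control cells, where CPM is counts per M counts of the scaled library. They summed to 6282 to 9860 CPM in Rg1 plus LPS, 5772 to 10012 CPM in LPS and 8894 to 11376 CPM in control libraries. By edgeR, 5 of the 10 were higher and 1 lower in Rg1 plus LPS than in LPS, 4 were lower in Rg1 plus LPS than in control and 6 were lower in LPS than in control. The part of this shift in the members' results was not tested. Lists of other cell types were partly detected: at least 1 CPM on average was found for 5 of 7 markers of oligodendrocyte precursors, 4 of 8 of oligodendrocytes, 6 of 10 of microglia and macrophages, 5 of 8 of neurons and 4 of 8 of endothelium. Under 1 CPM in every library were Sox10 and Gpr17 (precursors), P2ry12 and Aif1 (microglia), Rbfox3, Snap25 and Slc17a7 (neurons) and Pecam1, Cldn5 and Emcn (endothelium). Others were higher: in Rg1 plus LPS, LPS and control cells, Olig1 averaged 265, 231 and 215 CPM and Tmem119 36.0, 28.4 and 30.7 CPM. Markers of the same lists differed from these: Pdgfra (precursors) averaged 12.0, 17.9 and 42.2 CPM and Cspg4 (precursors) 15.2, 30.4 and 26.8 CPM. Csf1r (microglia) averaged 1.31, 5.96 and 4.73 CPM. Stmn2 averaged 440, 445 and 434 CPM there, and Cdh5 86.8, 141 and 121 CPM. The endothelial markers, mostly Cdh5, summed to 93.4 to 110, 166 to 194 and 132 to 159 CPM in the same groups. By edgeR, 4 of 10 microglia and macrophage markers were lower and 0 higher in Rg1 plus LPS than in LPS. Of the 7 precursor markers found, 2 were higher and 2 lower in Rg1 plus LPS, against LPS and likewise against control. In LPS against control 1 precursor marker was lower and 0 were higher. The part of these shifts in the members' results was not tested. Of 8 fibroblast and meningeal markers, 7 had at least 1 CPM on average, Fap being the exception, and Col1a1 averaged 1318 CPM in Rg1 plus LPS, 1834 CPM in LPS and 1331 CPM in control cells. In bulk RNA, fewer cells of a type and less RNA per cell cannot be told apart. Replicates 1 and 4 of Rg1 plus LPS stood apart: the 8 fibroblast and meningeal markers summed to 2145 and 2997 CPM there, against 4628 to 6480 CPM in the other 3 Rg1 plus LPS libraries, 4667 to 6490 CPM in LPS and 4388 to 5853 CPM in control libraries. Results on the members are therefore also given without those replicates. The mitochondrial share of counts was 2.77 to 4.98% in Rg1 plus LPS, 1.58 to 2.37% in LPS and 2.49 to 2.80% in control libraries. Long genes read lower in Rg1 plus LPS: the slope of log2 CPM (relative to each gene's mean) on log2 gene length was -0.09 to -0.05 there, 0.03 to 0.06 in LPS and 0.01 to 0.06 in control libraries. The members are mostly long transcripts, and the part of this trend in each result was not tested beyond a fit with the trend removed, whose values are given where they change a call.

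Set against LPS, the Rg1 plus LPS cells had less tenascin-C, fibronectin and versican mRNA and more brevican mRNA, while neurocan stayed within the spread between libraries. Of the 9 members tested, 4 fell (Tnc, Fn1, Vcan and, at the edge of the threshold, Chst11) and 1 rose (Bcan), by edgeR's quasi-likelihood test with Benjamini-Hochberg adjustment over all genes at an adjusted p under 0.05. This count of 5 stands beside 45.4% of all genes called in that comparison (22.2% higher and 23.2% lower), so the number called is near the background, and only the individual genes are described. Libraries of both groups did not overlap for 3 members (Fn1, Tnc, Vcan), beside 27.5% of all genes. Without Rg1 plus LPS replicates 1 and 4 there were again 5 called, of which 2 were higher (Bcan, Cspg5) and 3 lower (Tnc, Fn1, Vcan). Of all genes called in that fit 49.0% were higher, and the 45.4% above is not its background.

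Set against control, the Rg1 plus LPS cells had 6 members lower (Tnc, Fn1, Vcan, Tnr, Chst11, Ptprz1) and 1 higher (Bcan). These 7 of 9 stand beside 36.9% of all genes, 18.1% lower and 18.8% higher. No overlap was found for 4 members (Chst11, Fn1, Tnc, Vcan), beside 26.2% of all genes. Without replicates 1 and 4 of Rg1 plus LPS, 5 were called, and Tnr and Ptprz1 were lost. Of all genes called in that fit 49.9% were higher, and the 36.9% above is not its background.

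In the fit of all 15 libraries, LPS alone moved 1 of the 9: Ptprz1 was lower than in control, and its libraries did not overlap. The background was 23.7% of all genes called, 9.82% called lower, 13.8% called higher and 20.4% without overlap. The median log2 fold change of the 9 members was -0.11 in LPS against control, where that of all genes was -0.00. For Rg1 plus LPS it was -0.21 set against LPS and -0.49 set against control, where all genes had medians of 0.03 and 0.01. The comparisons share libraries, since each group serves in 2 of the 3, so their values are given side by side and are not independent of one another.

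**Figure D1:**
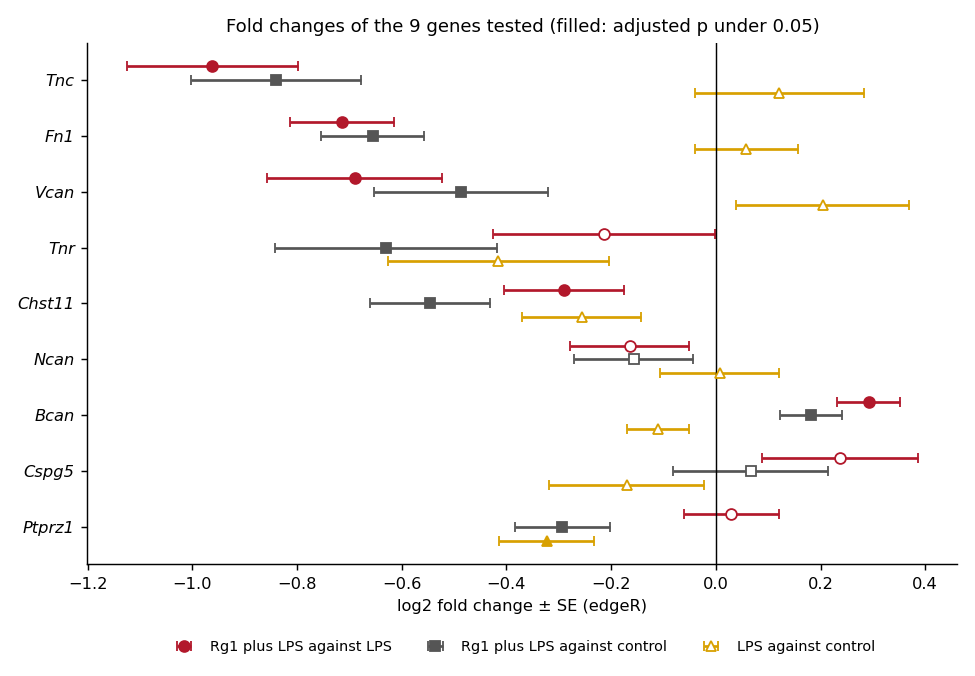
Log2 fold change ± SE from the edgeR fit of the 9 members tested, for the 3 comparisons; filled symbols passed an adjusted p of 0.05. Tnc lies at -0.96 against LPS and at -0.84 against control, Bcan lies right of 0 in both, and LPS against control has Ptprz1 as its only filled symbol.

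Levels of different genes were compared on the FPKM scale, which divides by gene length. Fibronectin led in every group by a wide margin, at 412 ± 57.0 FPKM in Rg1 plus LPS, 626 ± 65.6 FPKM in LPS and 619 ± 28.7 FPKM in control cells (SD, n = 5). Neurocan came next at 62.4 ± 10.6, 64.7 ± 9.00 and 66.4 ± 5.46 FPKM in the same groups, and in LPS its range overlapped that of tenascin-C. The third place differed between groups. In Rg1 plus LPS it was brevican at 45.2 ± 3.74 FPKM, above tenascin-C at 27.8 ± 5.40 FPKM in every library. In LPS it was tenascin-C at 50.2 ± 11.3 FPKM, above brevican at 34.2 ± 1.75 FPKM in every library. In control the ranges of tenascin-C (47.6 ± 7.13 FPKM) and brevican (38.1 ± 0.696 FPKM) overlapped. Ptprz1, Cspg5 and Chst11 followed, between 14.8 and 23.6 FPKM on average, and neighbours among them overlapped in each group. Versican was at 6.12 to 9.15 FPKM on average and tenascin-R at 0.907 to 1.34 FPKM, and neither overlapped the gene above or below it. The lengths behind the deposited FPKM differ from the summed exons of the GENCODE annotation for some members (3871 against 10074 bases for Cspg5, 20263 against 12867 bases for Tnr), which moves those genes' places and not their differences between groups.

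**Figure D2:**
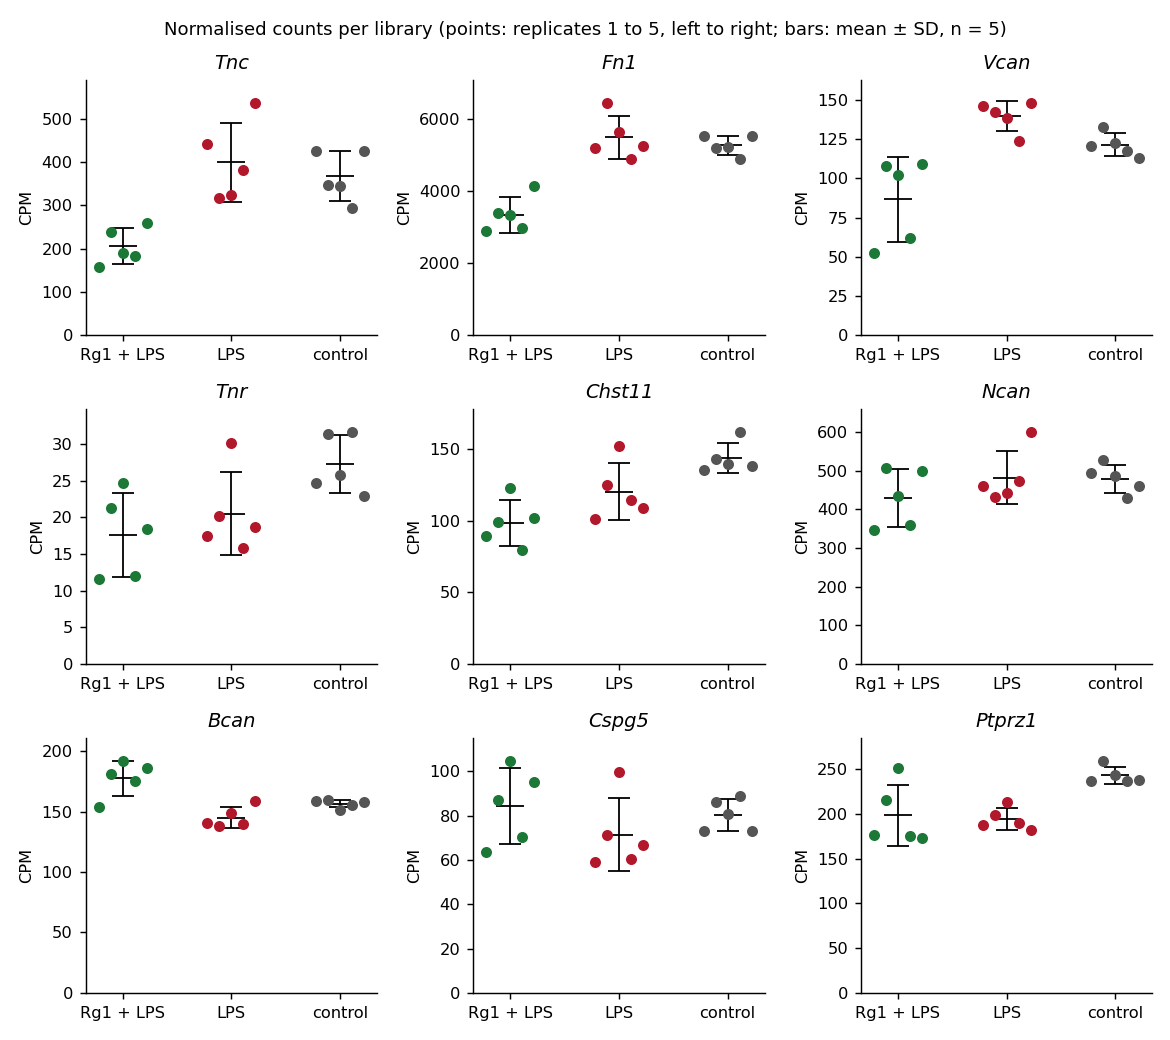
CPM of the 9 members tested in each library (points, replicates 1 to 5 from left to right) with mean ± SD of the 5 libraries; every axis starts at 0. The Rg1 plus LPS points of Tnc, Fn1 and Vcan all lie under those of LPS and control, and 2 Vcan points (replicates 1 and 4) lie far under the other 3.

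Brevican is the lectican of the mature brain's matrix and is made largely by astrocytes and their kin. Its gene lies at chr3:87987531-88002175 on the minus strand (GRCm38.p6, RefSeq). It had 154, 181, 192, 175 and 186 CPM in the 5 Rg1 plus LPS libraries, 141, 138, 148, 140 and 158 CPM in the LPS libraries and 158, 160, 151, 156 and 158 CPM in the control libraries. Of the Rg1 plus LPS libraries, 4 lay above every LPS and control library, and replicate 1 lay within both. Brevican rose 1.22-fold against LPS (log2 0.29 ± 0.06 SE, edgeR adjusted p = 0.000812) and 1.13-fold against control (0.18 ± 0.06, edgeR adjusted p = 0.0249). Between LPS and control it differed by -0.11 ± 0.06 (edgeR adjusted p = 0.193). Without Rg1 plus LPS replicates 1 and 4 the log2 values were 0.37 against LPS and 0.25 against control. The call against control was lost without control replicate 3 (0.17, edgeR adjusted p = 0.0612) and with no filter on low counts (0.16, edgeR adjusted p = 0.0727).

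Versican, the large lectican of loose and provisional matrix, is encoded at chr13:89655309-89743027 on the minus strand. It had 52.3, 108, 102, 61.8 and 109 CPM in Rg1 plus LPS, 146, 142, 139, 124 and 148 CPM in LPS and 121, 133, 123, 118 and 113 CPM in control libraries. All Rg1 plus LPS libraries lay under all others, with replicates 1 and 4 at about one level and replicates 2, 3 and 5 at a higher one. Versican fell 1.61-fold against LPS (log2 -0.69 ± 0.17, edgeR adjusted p = 0.00325) and 1.40-fold against control (-0.49 ± 0.17, edgeR adjusted p = 0.0314). The LPS and control libraries overlapped (0.20 ± 0.17, edgeR adjusted p = 0.398).

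The libraries low in versican were those low in fibroblast and meningeal markers. Without replicates 1 and 4 of Rg1 plus LPS, the versican differences shrank to -0.39 ± 0.07 against LPS (edgeR adjusted p = 0.000228) and -0.19 ± 0.07 against control (edgeR adjusted p = 0.0352). Those replicates were chosen after seeing the data and were the lowest in versican, so the p-values of this fit leave out part of the spread. The same fit called versican higher in LPS than in control (0.20 ± 0.06, edgeR adjusted p = 0.0157). So did the fit of only the 2 groups compared, and the other 22 alternative settings did not. The call of versican as lower in Rg1 plus LPS than in control held in 16 of 24 alternative settings and was lost in 8. Among the losses was leaving out Rg1 plus LPS replicate 4 alone (-0.38, edgeR adjusted p = 0.0752). Others were leaving out control replicate 1, 2 or 3 (edgeR adjusted p = 0.0518, 0.0683 and 0.0548) and removing the gene length trend (-0.25, edgeR adjusted p = 0.262). The part of any of these cell types in the versican result was not tested.

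**Figure D3:**
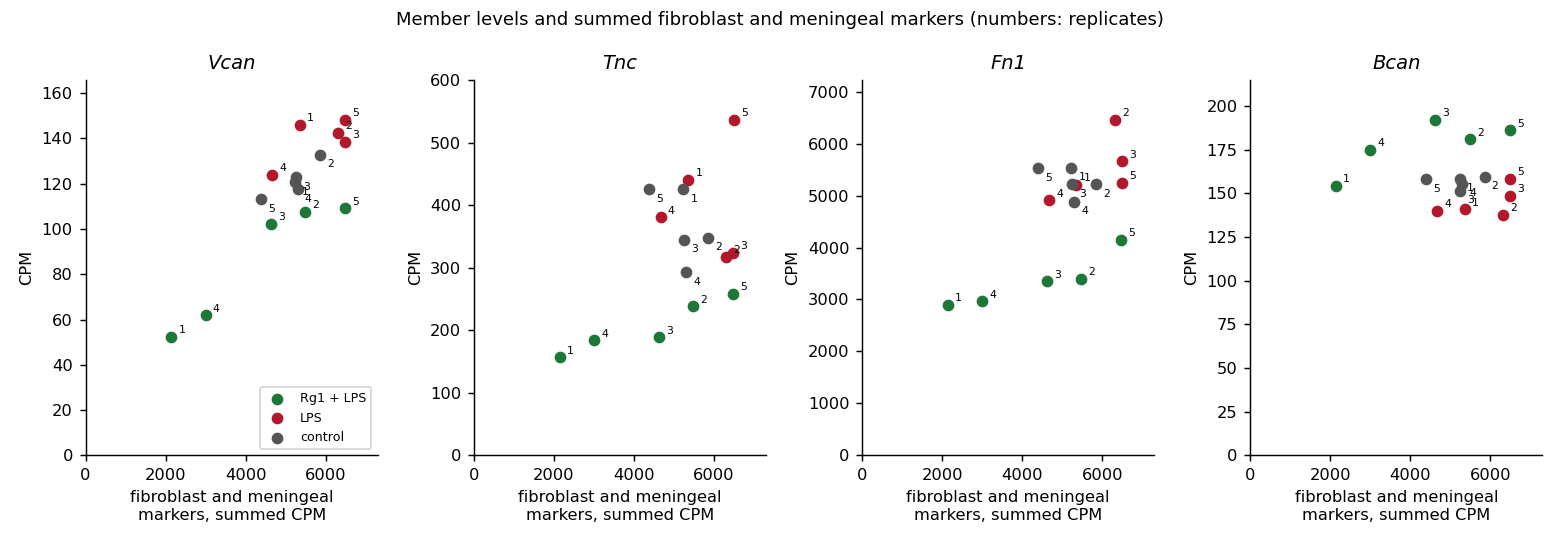
CPM of Vcan, Tnc, Fn1 and Bcan in each library against the summed CPM of 8 fibroblast and meningeal markers; numbers are replicates and both axes start at 0. The Rg1 plus LPS replicates 1 and 4 lie lowest on the marker axis and in Vcan; in all 4 panels the other 3 Rg1 plus LPS libraries also lie apart from the LPS libraries, lower for Vcan, Tnc and Fn1 and higher for Bcan.

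Neurocan, the lectican of the developing brain that returns in astrocytes after injury, is encoded at chr8:70093085-70120863 on the minus strand. It had 346, 506, 435, 360 and 500 CPM in Rg1 plus LPS, 459, 432, 441, 472 and 600 CPM in LPS and 493, 526, 486, 428 and 459 CPM in control libraries. The 3 groups overlapped, with Rg1 plus LPS replicates 1 and 4 the lowest of all 15 and LPS replicate 5 the highest. No comparison passed the test: log2 -0.16 ± 0.11 between Rg1 plus LPS and LPS (edgeR adjusted p = 0.256), -0.16 ± 0.11 between Rg1 plus LPS and control (0.299) and 0.01 ± 0.11 in LPS against control (0.968).

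Aggrecan, the lectican of cartilage and of perineuronal nets (chr7:79053226-79115099, plus strand), was hardly detected. It had 0 counts over the 5 Rg1 plus LPS libraries, which allows up to 3 counts or 0.0155 per M counts. The LPS libraries held 8 counts in all, 5 of them in replicate 1, and the control libraries held 2, both in replicate 4. Limits of this kind hold for counting error alone, as PCR can copy 1 molecule into several reads. With so few counts no difference is read from it; a fit with no filter on low counts called it lower in Rg1 plus LPS than in LPS, on 0 counts against 8.

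Brevican made up a larger share, and versican a smaller share, of lectican mRNA in Rg1 plus LPS than in either other group. Brevican was 40.1 ± 3.31% of the summed FPKM of the 4 genes in Rg1 plus LPS, 31.7 ± 1.68% in LPS and 33.8 ± 1.60% in control cells (SD, n = 5). Versican was 5.28 ± 1.04% in Rg1 plus LPS, 8.52 ± 0.799% in LPS and 7.28 ± 0.247% in control cells. Neurocan was 54.7 ± 2.58% in Rg1 plus LPS, 59.7 ± 2.29% in LPS and 58.9 ± 1.60% in control cells. The ratio of brevican to versican FPKM was 6.04 to 10.6 in Rg1 plus LPS, 3.47 to 4.07 in LPS and 4.33 to 5.03 in control libraries, with no overlap between the Rg1 plus LPS libraries and the others. The sum of the 4 genes, 114 ± 15.2 FPKM in Rg1 plus LPS, 108 ± 10.7 FPKM in LPS and 113 ± 6.36 FPKM in control cells, differed by less than its spread. These sums lack the TMM scaling used for CPM. Its factors were 1.02 to 1.06 in Rg1 plus LPS, 0.9518 to 0.9882 in LPS and 0.9795 to 1.006 in control libraries. No order of the groups is therefore read from the sums. These shares are a description with no test of their own. The gene length trend described above was not removed from them, and the FPKM lengths are 4091 bases for Bcan and 14723 for Vcan. The part of that trend in the shares and ratios was not tested.

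**Figure D4:**
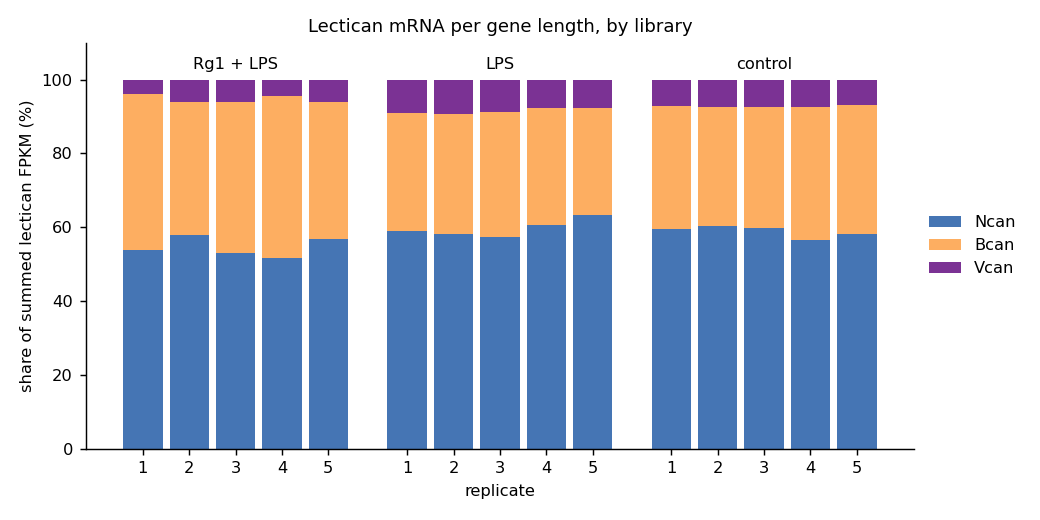
Share of Ncan, Bcan and Vcan in the summed lectican FPKM of each library (stacked bars, %; Acan is too low to be drawn). The Bcan share is 36.2 to 44.0% in Rg1 plus LPS, 29.2 to 33.8% in LPS and 32.1 to 36.0% in control libraries.

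Each lectican gene has a gene of the hyaluronan link protein family as its neighbour on the chromosome. Hapln4, at 2222 bases from Ncan, was the link gene that moved: 4.22 ± 1.88 CPM in Rg1 plus LPS, 2.17 ± 0.738 CPM in LPS and 1.82 ± 0.455 CPM in control cells (SD, n = 5). It rose by log2 0.96 ± 0.30 against LPS (edgeR adjusted p = 0.0152) and 1.21 ± 0.30 against control (edgeR adjusted p = 0.00518). Hapln1, at 43659 bases from Vcan, had 5.95 ± 3.16, 6.74 ± 1.19 and 5.94 ± 1.71 CPM in Rg1 plus LPS, LPS and control cells, within its spread. Hapln3, only 2 bases from Acan in the annotation, stayed under 1 CPM on average, and Hapln2 beside Bcan had 16 counts in all 15 libraries.

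Ptprz1 makes a transmembrane receptor phosphatase, its short form and the secreted proteoglycan phosphacan from 1 gene (chr6:22875315-23052916, plus strand). The counts per gene do not part these forms. It had 176, 215, 251, 175 and 173 CPM in Rg1 plus LPS, 188, 198, 214, 189 and 182 CPM in LPS and 237, 259, 244, 237 and 238 CPM in control libraries. Every LPS library lay under every control library, while Rg1 plus LPS replicate 3 reached the control range and the other 4 did not. Ptprz1 fell 1.25-fold in LPS against control (log2 -0.32 ± 0.09, edgeR adjusted p = 0.0162), and that call held under all 24 alternative settings. In Rg1 plus LPS against LPS it was 0.03 ± 0.09 (edgeR adjusted p = 0.817). Against control the Rg1 plus LPS cells were 1.23-fold lower (-0.29 ± 0.09, edgeR adjusted p = 0.0184). This last call was lost without Rg1 plus LPS replicate 4 (-0.25, edgeR adjusted p = 0.0599) or 5 (-0.23, 0.0585), without replicates 1 and 4 together (-0.18, 0.150), without scaling factors (-0.22, 0.0705) and with the gene length trend removed (-0.11, 0.339). With the length trend removed, Ptprz1 was called higher in Rg1 plus LPS than in LPS (0.25, edgeR adjusted p = 0.0264).

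Cspg5, a transmembrane proteoglycan with a growth-factor-like domain, lies at chr9:110243783-110262576. It had 63.7, 86.9, 105, 70.4 and 95.3 CPM in Rg1 plus LPS, 59.3, 71.2, 99.9, 60.3 and 66.7 CPM in LPS and 73.1, 86.1, 80.8, 88.8 and 73.3 CPM in control libraries. All groups overlapped, and replicate 3 was the highest library of both groups given LPS. No comparison passed: log2 0.24 ± 0.15 in Rg1 plus LPS against LPS (edgeR adjusted p = 0.209), 0.07 ± 0.15 in Rg1 plus LPS against control (0.755) and -0.17 ± 0.15 in LPS against control (0.432). Against LPS it passed without LPS replicate 3 (0.40, edgeR adjusted p = 0.0157) and without Rg1 plus LPS replicates 1 and 4 (0.43, edgeR adjusted p = 0.0249). The summed astrocyte markers of LPS replicate 3 were 10012 CPM, against 5772 to 7680 CPM in the other LPS libraries, and that library was also the highest of its group for Ptprz1, Tnr and Chst11. The part of this in the members' results was not tested.

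Tenascin-C, the hexameric glycoprotein of wounds and developing tissue, fell the most in Rg1 plus LPS among the 9 members tested. Its gene lies at chr4:63959785-64047015 on the minus strand. It had 157, 239, 189, 184 and 259 CPM in Rg1 plus LPS, 441, 317, 324, 381 and 537 CPM in LPS and 426, 348, 345, 293 and 425 CPM in control libraries. The highest Rg1 plus LPS library lay under the lowest LPS and the lowest control library, and the LPS and control libraries overlapped. Tenascin-C fell 1.95-fold against LPS (log2 -0.96 ± 0.16, edgeR adjusted p = 0.000192) and 1.79-fold against control (-0.84 ± 0.16, edgeR adjusted p = 0.000900). LPS differed from control by 0.12 ± 0.16 (edgeR adjusted p = 0.622). Both calls held under all 24 alternative settings, with log2 values of -1.04 to -0.78 against LPS and -0.92 to -0.68 against control. Without Rg1 plus LPS replicates 1 and 4 they were -0.80 and -0.68, in libraries whose fibroblast and meningeal markers summed to 4628 to 6480 CPM. The part of any cell type in the tenascin-C result was not tested. A transcript on the other strand, 8030451A03Rik, shares 176 exonic bases with Tnc and reached at most 1.27 CPM; the strand setting of the counting is not given in the sources used here.

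Tenascin-R is the trimeric tenascin of the adult brain, known chiefly from oligodendrocytes and some neurons. It was the weakest member tested (chr1:159523729-159931729, plus strand), with 11.6, 21.3, 24.7, 12.0 and 18.5 CPM in Rg1 plus LPS, 17.5, 20.2, 30.1, 15.8 and 18.7 CPM in LPS and 24.6, 31.4, 25.7, 31.6 and 22.9 CPM in control libraries. The groups overlapped, and Rg1 plus LPS replicates 1 and 4 were the lowest of all 15. It fell 1.55-fold in Rg1 plus LPS against control (log2 -0.63 ± 0.21, edgeR adjusted p = 0.0293). It was -0.21 ± 0.21 against LPS (edgeR adjusted p = 0.437) and -0.42 ± 0.21 in LPS against control (edgeR adjusted p = 0.170). The call against control was lost in 8 of 24 alternative settings: without Rg1 plus LPS replicate 1 (-0.51, edgeR adjusted p = 0.0636), 4 (-0.52, 0.0761) or 5 (-0.63, 0.0509), without control replicate 2 (-0.57, 0.0677) or 4 (-0.57, 0.0709) and without Rg1 plus LPS replicates 1 and 4 (-0.34, 0.177), with no filter on low counts (-0.65, 0.0581) and with the gene length trend removed (-0.37, 0.186). Without LPS replicate 3, tenascin-R was called lower in LPS than in control (-0.61, edgeR adjusted p = 0.0288). The summed oligodendrocyte markers were 90.2 to 156 CPM in Rg1 plus LPS, 84.2 to 162 CPM in LPS and 117 to 183 CPM in control libraries, with Mog, Mag, Mobp and Ermn, 4 of the 8 listed, under 1 CPM in every library. Most of these sums was Cnp, which averaged 101 CPM in Rg1 plus LPS, 87.1 CPM in LPS and 118 CPM in control cells. The part of the oligodendrocyte markers in the tenascin-R result was not tested.

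Fibronectin, the integrin ligand on which fibrous scar matrix assembles, lies at chr1:71585473-71653280. It had 2894, 3394, 3348, 2965 and 4150 CPM in Rg1 plus LPS, 5213, 6456, 5657, 4910 and 5248 CPM in LPS and 5535, 5217, 5222, 4886 and 5532 CPM in control libraries. The Rg1 plus LPS libraries lay apart below both other groups, which overlapped. Fibronectin fell 1.64-fold against LPS (log2 -0.71 ± 0.10, edgeR adjusted p = 2.35e-05) and 1.58-fold against control (-0.66 ± 0.10, edgeR adjusted p = 9.60e-05). LPS itself was at 0.06 ± 0.10 against control (edgeR adjusted p = 0.702). Both calls held under all 24 alternative settings. Without Rg1 plus LPS replicates 1 and 4 the log2 values were -0.59 and -0.54. Apol7d, on the other strand, shares 292 exonic bases with Fn1 and had at most 0.597 CPM.

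Chst11 transfers sulphate to the N-acetylgalactosamine of chondroitin chains, the commonest sulphation of the lecticans' chains. Its gene lies at chr10:82984440-83195904 on the plus strand. It had 89.0, 98.9, 123, 79.3 and 101 CPM in Rg1 plus LPS, 101, 125, 152, 115 and 109 CPM in LPS and 135, 143, 139, 162 and 138 CPM in control libraries. Every Rg1 plus LPS library lay under every control library, and the LPS libraries overlapped with both. Chst11 fell 1.46-fold in Rg1 plus LPS against control (log2 -0.55 ± 0.11, edgeR adjusted p = 0.00154), and this held under all 24 alternative settings. Against LPS it was 1.22-fold lower (-0.29 ± 0.11, edgeR adjusted p = 0.0488), a call at the threshold that held in 7 of 24 alternative settings. Leaving out any 1 library ended it except Rg1 plus LPS replicate 3 or LPS replicate 1 or 5, with edgeR adjusted p of up to 0.162 (-0.18, without LPS replicate 3). With the gene length trend removed it was -0.13 (edgeR adjusted p = 0.411), and without Rg1 plus LPS replicates 1 and 4 it was -0.15 (0.316). LPS was at -0.26 ± 0.11 against control (edgeR adjusted p = 0.115), and this passed without LPS replicate 3 (-0.36, edgeR adjusted p = 0.0155).

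Start-proximal promoters are shown for 4 genes called against both other groups: 3 fell (Chst11 against LPS only at the threshold) and 1 rose. Each is the 250 bases before the start that the table gives in RefSeq's GRCm38.p6, written 5′ to 3′ on the gene's strand, and of the 10 genes 8 had an entry in the table used (all but Cspg5 and Fn1). For Tnc, with 2 starts in that table, the one farthest downstream was taken, and for all 4 genes the table's start lies inside the RefSeq gene span given above, so that the windows of Vcan, Chst11 and Bcan lie wholly within it. Capitals mark matches, on either strand, to 6 motifs: the TATA box (TATANAA), the GC box (GGGCGG), the CCAAT box (CCAAT), AP-1 (TGANTCA), TEAD (GGAATG) and the NF-kB consensus motif.
Tnc, chr4:64046937-64047186, minus strand: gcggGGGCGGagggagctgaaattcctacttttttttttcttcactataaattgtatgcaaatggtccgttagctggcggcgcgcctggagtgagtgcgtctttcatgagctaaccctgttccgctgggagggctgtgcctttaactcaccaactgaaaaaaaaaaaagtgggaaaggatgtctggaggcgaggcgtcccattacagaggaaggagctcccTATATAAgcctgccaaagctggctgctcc
Vcan, chr13:89742513-89742762, minus strand: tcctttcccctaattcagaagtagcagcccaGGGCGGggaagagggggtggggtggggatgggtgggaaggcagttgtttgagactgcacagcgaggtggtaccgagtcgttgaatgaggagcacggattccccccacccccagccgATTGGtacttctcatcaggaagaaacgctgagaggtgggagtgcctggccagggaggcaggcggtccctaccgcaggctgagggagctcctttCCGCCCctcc
Chst11, chr10:82985247-82985496, plus strand: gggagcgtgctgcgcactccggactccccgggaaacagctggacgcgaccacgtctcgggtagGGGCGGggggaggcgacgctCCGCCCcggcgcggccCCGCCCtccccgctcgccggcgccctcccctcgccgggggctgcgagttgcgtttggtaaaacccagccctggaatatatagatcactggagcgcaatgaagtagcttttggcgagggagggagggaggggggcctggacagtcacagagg
Bcan, chr3:88000357-88000606, minus strand: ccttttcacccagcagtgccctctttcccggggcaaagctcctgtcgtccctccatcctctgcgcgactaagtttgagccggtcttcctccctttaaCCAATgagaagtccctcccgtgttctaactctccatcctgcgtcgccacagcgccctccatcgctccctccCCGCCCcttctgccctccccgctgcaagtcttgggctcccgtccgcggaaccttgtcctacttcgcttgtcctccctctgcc

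The windows differed in build. Tnc alone of the 4 had a TATA box, at -29 from its start, a motif found in 10.4% of all 32851 promoters of the table. All 4 held at least 1 GC box (32.7% of promoters), with 3 matches in Chst11, 2 in Vcan and 1 in Bcan and Tnc. Vcan and Bcan held a CCAAT box (33.8% of promoters). None of the 4 windows matched AP-1 (6.75% of promoters), TEAD (12.6%) or the NF-kB consensus motif (7.25%), which says only that those letters are not in these windows. GC content was 51.2% for Tnc, 62.4% for Vcan, 70.0% for Chst11 and 62.0% for Bcan, and the median of all promoters was 52.4%.

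Genes that build, bind and cut this matrix were examined beside the members. Of 140 genes in 7 related lists, 132 were tested. Against LPS, 51 fell and 6 rose in Rg1 plus LPS cells, beside 23.2% lower, 22.2% higher and 45.4% called of all genes, so the number called is near the background. Against control, 50 fell and 8 rose in Rg1 plus LPS cells, beside 18.1% lower, 18.8% higher and 36.9% called of all genes. LPS against control had 17 higher and 10 lower, beside 13.8% and 9.82% of all genes. Their median log2 fold changes were -0.22, -0.28 and -0.02, where all genes had 0.03, 0.01 and -0.00. Without Rg1 plus LPS replicates 1 and 4, the counts were 46 lower and 15 higher against LPS, and 43 lower and 12 higher against control. Of all genes called in that fit, 49.0% were higher against LPS and 49.9% against control. The shares of all genes called given above are those of the fit of all 15 libraries. The lists were chosen with earlier results of these data known, so the counts are a description.

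**Figure D5:**
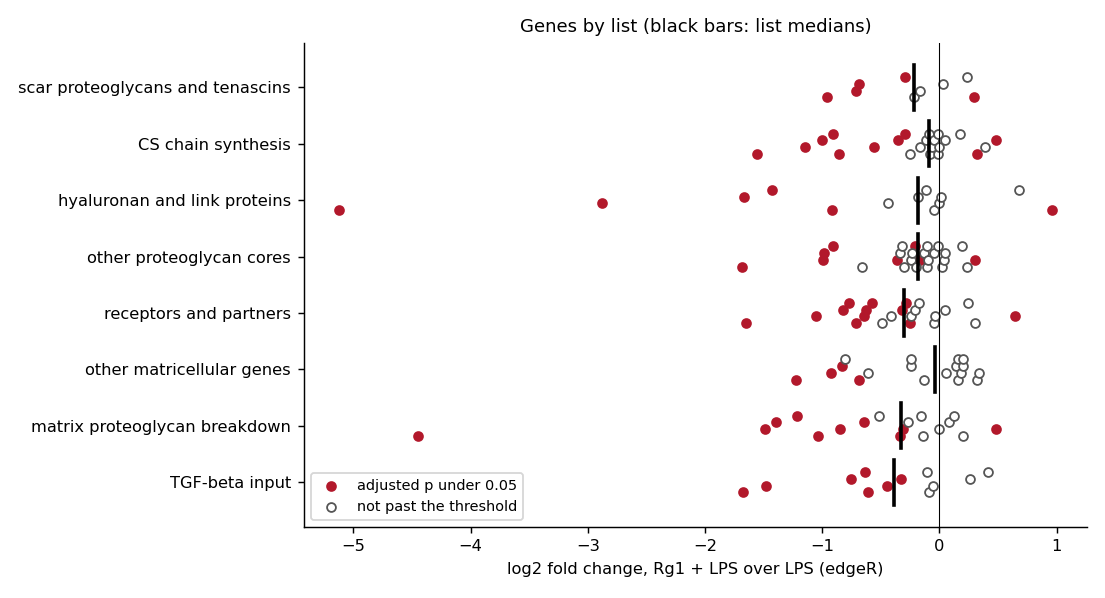
Log2 fold change in Rg1 plus LPS against LPS of each tested gene in the members' list and the 7 related lists; filled points passed an adjusted p of 0.05 in the edgeR fit and black bars are list medians. All 8 medians lie left of 0, and the farthest points on the left are Has1 at -5.12 and Adamts4 at -4.45.

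Of 23 chain-building enzymes tested, 8 fell and 2 rose in Rg1 plus LPS against LPS, near the 45.4% of all genes called. The sulfotransferase Chst15, which makes the highly sulphated E type of chondroitin sulphate, averaged 14.5 ± 2.04 CPM in Rg1 plus LPS, 42.6 ± 7.31 CPM in LPS and 17.7 ± 2.03 CPM in control cells (SD, n = 5). It fell against LPS (log2 -1.55 ± 0.13, edgeR adjusted p = 5.68e-08) and was higher in LPS than in control (1.27 ± 0.13, edgeR adjusted p = 1.09e-06). Dse, the epimerase that turns chondroitin into dermatan sulphate, was likewise at -1.15 ± 0.09 (edgeR adjusted p = 2.95e-08) against LPS and at 0.79 ± 0.09 (4.00e-06) in LPS against control. Xylt1, which attaches the first sugar to the core protein, fell by 0.91 on the log2 scale (edgeR adjusted p = 0.000114). The linkage enzymes B3gat3 (0.48 ± 0.07, edgeR adjusted p = 3.22e-05) and B4galt7 (0.32 ± 0.10, 0.0187) rose. Against control the list had 8 lower and 2 higher, beside 36.9% of all genes called, led by Chst3, another chondroitin sulfotransferase, at -1.04 ± 0.14 (edgeR adjusted p = 3.76e-05). LPS against control had 2 higher and 1 lower, beside 23.7% of all genes called, the last being Papss2, which makes the sulphate donor (-0.70 ± 0.15, edgeR adjusted p = 0.00356).

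Hyaluronan, the chain that lecticans bind, is made by Has1 to Has3. Has1 averaged 0.115 ± 0.0793 CPM in Rg1 plus LPS, 4.08 ± 1.71 CPM in LPS and 1.45 ± 1.25 CPM in control cells (SD, n = 5). It fell against LPS (log2 -5.12 ± 0.68, edgeR adjusted p = 1.85e-05) and against control (-3.62 ± 0.69, 0.000765). Has2 averaged 2.66 ± 1.59 CPM in Rg1 plus LPS, 19.6 ± 5.15 CPM in LPS and 13.2 ± 4.24 CPM in control cells, and fell by 2.88 on the log2 scale against LPS (edgeR adjusted p = 1.36e-05). The hyaluronan receptor Cd44 had 326 ± 45.7 CPM in Rg1 plus LPS, 877 ± 54.8 CPM in LPS and 559 ± 46.7 CPM in control cells; it fell against both (-1.43 ± 0.09, edgeR adjusted p = 2.43e-09, and -0.78 ± 0.09, 6.31e-06) and was higher in LPS than in control (0.65 ± 0.09, 3.85e-05). Cemip2, a hyaluronan-binding membrane protein, fell by 1.66 on the log2 scale against LPS (edgeR adjusted p = 1.81e-09). In all, 5 of 13 tested genes of this list fell and 1 rose against LPS, near the 45.4% of all genes called. Against control 6 fell and 2 rose, beside 36.9%, and LPS against control had 3 higher and 1 lower, beside 23.7%.

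Among 26 other proteoglycan cores, 7 fell and 1 rose in Rg1 plus LPS against LPS, fewer than the 45.4% of all genes called. Against control 10 fell and 0 rose by edgeR, near the 36.9% of all genes called. Syndecan-4 (Sdc4), a heparan sulphate co-receptor for fibronectin, had 373 ± 48.5 CPM in Rg1 plus LPS, 1197 ± 155 CPM in LPS and 577 ± 37.4 CPM in control cells (SD, n = 5). It fell against LPS (log2 -1.68 ± 0.10, edgeR adjusted p = 1.31e-09) and was higher in LPS than in control (1.05 ± 0.10, 5.58e-07). Cspg4, the NG2 proteoglycan of precursor cells and pericytes, fell by 1.00 (edgeR adjusted p = 2.88e-05) and glypican-6 (Gpc6) by 0.98 (4.66e-05) on the log2 scale against LPS. Cspg4 is also on the list of oligodendrocyte precursor markers. Gpc2 rose (0.30 ± 0.10, edgeR adjusted p = 0.0178). Beside 23.7% of all genes called in LPS against control, 2 of the list rose, Sdc4 and the basement membrane core Hspg2 (0.70 ± 0.15, edgeR adjusted p = 0.00274), and 4 fell, with Gpc1 first (-0.44 ± 0.08, 0.000624).

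Of 22 receptors and partners, 11 fell and 1 rose in Rg1 plus LPS against LPS, beside 45.4% of all genes called. Against control 13 fell and 0 rose by edgeR, beside 36.9%. Integrin alpha-5 (Itga5), the subunit of the main fibronectin receptor, had 95.1 ± 20.5 CPM in Rg1 plus LPS, 299 ± 46.4 CPM in LPS and 262 ± 57.4 CPM in control cells (SD, n = 5). It fell by 1.65 on the log2 scale against LPS (edgeR adjusted p = 1.70e-06). Integrin alpha-V (Itgav) fell by 0.77 (edgeR adjusted p = 5.58e-06) and Ptprf, a receptor phosphatase that binds chondroitin sulphate, by 0.57 (1.11e-06). The member that rose was Rtn4rl1, a Nogo receptor homologue (0.65 ± 0.13, edgeR adjusted p = 0.000919). In LPS against control 2 fell and 0 rose, beside 23.7% of all genes called, with Itga7 at -0.27 ± 0.09 (edgeR adjusted p = 0.0319).

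Of 18 genes of proteoglycan breakdown and its inhibitors, 9 fell and 1 rose in Rg1 plus LPS against LPS, beside 45.4% of all genes called. By edgeR, 6 were higher and 0 lower in LPS than in control, beside 23.7% of all genes called. Adamts4, a metalloprotease that cuts brevican, neurocan and versican, had 6.50 ± 2.46 CPM in Rg1 plus LPS, 142 ± 17.5 CPM in LPS and 9.24 ± 1.43 CPM in control cells (SD, n = 5). It fell against LPS (log2 -4.45 ± 0.23, edgeR adjusted p = 5.28e-10), and higher in LPS than in control (3.94 ± 0.22, 2.52e-09). Adamts1, another versican-cutting protease, was at -1.40 ± 0.15 in Rg1 plus LPS against LPS (edgeR adjusted p = 1.97e-06) and at 1.08 ± 0.15 in LPS against control (5.21e-05). The protease inhibitor Timp1 was at -1.22 ± 0.13 (edgeR adjusted p = 1.26e-06) and 1.09 ± 0.13 (7.87e-06) in these comparisons. Against control the Rg1 plus LPS cells had 3 lower, with Timp3, an inhibitor of these proteases, at -0.75 ± 0.16 (edgeR adjusted p = 0.00216), and 1 higher, beside 36.9% of all genes called.

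Transforming growth factor beta is a known inducer of scar matrix in astrocytes. Of 12 genes of its pathway tested, 7 fell and 0 rose in Rg1 plus LPS by edgeR, against LPS and likewise against control, where 23.2% and 18.1% of all genes fell and 45.4% and 36.9% were called. The effector Smad3 had 55.8 ± 4.62 CPM in Rg1 plus LPS, 156 ± 32.1 CPM in LPS and 108 ± 7.35 CPM in control cells (SD, n = 5), with log2 -1.48 ± 0.11 against LPS (edgeR adjusted p = 1.90e-08) and -0.96 ± 0.11 against control (6.20e-06). The ligand Tgfb1 fell by 0.76 against LPS (edgeR adjusted p = 2.74e-05) and was higher in LPS than in control (0.41 ± 0.11, 0.0103). The receptor Tgfbr1 was lower in LPS than in control (-0.63 ± 0.10, edgeR adjusted p = 0.000205).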

How the data were processed

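Polyadenylated RNA of 15 libraries was measured, 5 per group, per the labels. For each gene symbol the authors deposited raw counts and FPKM, that is counts divided by gene length and total count, for each library. The builds GRCm38 and mm10 are named in the submitters' processing notes, and the sources used here name no aligner, counter, annotation or strand setting. In each deposited FPKM file 37 rows had damaged symbols and were left out, and no member was among them.

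Tests on the counts used edgeR 4.0.16 under R 4.3.3: filterByExpr by group, TMM scaling, 1 robust quasi-likelihood fit of all 15 libraries with group as its term, two-sided F-tests, and Benjamini-Hochberg adjustment over 15362 genes, with genes under 0.05 called changed. CPM are counts per M counts of the TMM-scaled library. FPKM, which carry no TMM scaling, were used for levels between genes and for the lectican sums, shares and ratios and the tenascin ratio. Alternatives were limma 3.58.1 (voom), DESeq2 1.42.0, other scalings and filters, a gene length correction, a replicate block and leaving out each library. The fit was tested on simulated data with known differences.

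Samples were grouped by title. The members and gene lists were chosen with earlier results of these data known. All members are described, and of each related list and comparison up to 3 genes that rose and 3 that fell by adjusted p, at a mean of at least 1 CPM, and up to 2 with the largest change, could be named. Depth was 34.2 to 41.8 M counts, and 3 counts in a group's 5 libraries are 0.0155 to 0.0163 per M. Promoters came from a RefSeq table of GRCm38.p6 and exon overlaps from GENCODE.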

Additional observations from a re-analysis of the deposited data

Results flagged for a closer look

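Of 29 sets of 5 libraries examined (the members in each group), 4 had a highest library farther from the others than Dixon's 95% critical value allows, and chance alone flags about 1 in 20. Neurocan reached 600.2 CPM in LPS replicate 5. Chst11 reached 162 CPM in control replicate 4. Aggrecan, at the limit of detection, reached 0.1345 CPM (5 counts) in LPS replicate 1 and 0.0585 CPM (2 counts) in control replicate 4. The chance rate does not hold for such low counts. In control the other libraries were all at 0 counts, so any count in 1 library is flagged. No explanation was tested for the 4 flagged sets.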

How the results depend on the processing

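Under 24 alternative settings (9 of them not leaving out a single library), 581 of 648 values kept their direction and side of the threshold, 40 lost the call, 8 gained one and 19 changed sign. No called value changed sign. The replicate numbers were not taken to pair the samples, since of 15 same-numbered pairs the correlation of deviations was -0.22 to 0.42, over 0.1 in 6. In Rg1 plus LPS against LPS it was 0.42, 0.37 and 0.42 for replicates 3, 4 and 5, each of which correlated best with its own number (a hint from the data, not the design), and 0.17 and 0.05 for replicates 1 and 2. With the replicate number as a block, 2 members were called in LPS against control, with Chst11 added (-0.27, edgeR adjusted p = 0.0492), and 5 and 7 in the other comparisons.

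In LPS against control, 1 member called became 2 with only the groups compared, 2 without Rg1 plus LPS replicates 1 and 4 (chosen after seeing the data) and 1 to 3 when single libraries were left out, with 3 without LPS replicate 3. The member added in the first 2 of these settings was versican, called higher. In Rg1 plus LPS against control, 7 became 4 with no filter, 4 with the length trend removed and 4 to 7 when single libraries were left out, with 4 without Rg1 plus LPS replicate 4. In Rg1 plus LPS against LPS the range was 4 to 5. Without scaling factors the share of calls that were higher was 45.9, 65.0 and 63.9% in LPS against control, Rg1 plus LPS against LPS and Rg1 plus LPS against control, where it was 58.5, 48.9 and 50.9% with them, and the median of all genes in Rg1 plus LPS against LPS moved by over 0.1 to 0.14. No member that was called under both changed direction.

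Signs changed for values near 0, and the causes were not tested. Neurocan in LPS against control was -0.0371 without scaling factors, -0.0094 with no filter, -0.0010 with only the groups compared, -0.026 with the length trend removed and -0.0907 to 0.0443 when single libraries were left out. Neurocan in Rg1 plus LPS against LPS was 0.0064 with the length trend removed and 0.0053 without replicates 1 and 4, and against control 0.0069 without them. Tenascin-R against LPS was 0.066 with the length trend removed and 0.0794 without replicates 1 and 4. With single libraries left out, LPS against control was -0.0135 to 0.1944 for Tnc and -0.0055 to 0.0968 for Fn1, Ptprz1 against LPS was -0.0528 to 0.0945, and Cspg5 in Rg1 plus LPS against control was -0.0183 to 0.1522.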

Other observations

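Other matricellular genes, which modulate cell contact with matrix, did not move as one. Of 18 tested, 4 fell and 0 rose in Rg1 plus LPS against LPS by edgeR, fewer than the 45.4% of all genes called. Against control 3 fell and 3 rose, near the 36.9% of all genes called. The basement membrane linker Nid1 fell by 0.83 on the log2 scale against LPS (edgeR adjusted p = 0.000441), and thrombospondin-2 (Thbs2) by 0.93 (0.0218). Ccn1, a matricellular target of the Hippo pathway, was higher in Rg1 plus LPS than in control, at 950 ± 158 CPM in Rg1 plus LPS and 560 ± 65.3 CPM in control cells (SD, n = 5; log2 0.76 ± 0.14, edgeR adjusted p = 0.000422), and higher in LPS than in control (0.44 ± 0.14, 0.0270). Fibulin-2 (Fbln2), a versican ligand, had 498 ± 215 CPM in LPS and 234 ± 60.4 CPM in control cells (1.09 ± 0.31, edgeR adjusted p = 0.0175).

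The ratio of tenascin-C to tenascin-R FPKM was 20.2 to 40.3 in Rg1 plus LPS, 28.4 to 75.8 in LPS and 24.5 to 49.0 in control libraries, so the groups overlapped.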
